A study of Mus musculus with 39 samples.

Results

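The genes described here are 33 genes of glycolysis, glucose and lactate transport, and the entry of pyruvate into mitochondria, followed in 3 tissues of B6C3F1 mice (spleen, liver and bone marrow). They were listed by symbol, and a gene counted as measured where an Affymetrix probe set (a group of short probes against 1 transcript) was named by that gene alone. By that rule 31 of the 33 genes were measured, by 67 probe sets, among 18194 genes in all. The array annotation names no such probe set for Gpi1 and Eno1, which were not analysed here. Gapdh was read from control probe sets of the array, the probe sets named by Gapdh alone.

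Mice were exposed to reduced oxygen for 2 hours and set against control mice, whose arrays carry the word vehicle in their titles without a substance. The labels give neither the oxygen level nor whether the exposed mice also received a vehicle. The groups were liver at reduced oxygen (8 arrays) and control liver (8), bone marrow at reduced oxygen (4) and control bone marrow (3), and spleen at reduced oxygen (8) and control spleen (8). Nothing in the labels says whether samples, or tissues, came from the same mice, so p-values measure the spread between these samples. Bone marrow RNA was extracted with a different kit from liver and spleen RNA, per the labels' protocols.

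Glycolysis splits glucose into pyruvate in the cytosol and yields ATP without oxygen. Glucose enters through facilitative carriers of the Slc2a (GLUT) family and is trapped by hexokinases. Phosphofructokinase and pyruvate kinase catalyse the other irreversible steps. Lactate dehydrogenase turns pyruvate into lactate and restores NAD+, and carriers of the Slc16a (MCT) family move lactate across the membrane. The pyruvate dehydrogenase complex instead commits pyruvate to mitochondrial oxidation, and is switched off by the Pdk kinases and on by the Pdp phosphatases. Many genes of the pathway are textbook targets of the hypoxia-inducible factors (HIF), which bind the core sequence RCGTG, where R is A or G. The liver is a special case, because hepatocytes both use and make glucose.

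The promoters of 5 members that rose in at least 1 tissue are printed because they cover a transporter of glucose, a transporter of lactate, a glycolytic enzyme, lactate dehydrogenase and a regulator of pyruvate oxidation. Each runs 5′ to 3′ from 250 bases before to 50 after the first listed start, from RefSeq on GRCm38.p6. Capitals mark ACGTG or GCGTG on the printed strand or CACGT or CACGC, their reverse complements, and runs that overlap are joined.
Slc2a1 (chr4:119108495-119108794, plus strand): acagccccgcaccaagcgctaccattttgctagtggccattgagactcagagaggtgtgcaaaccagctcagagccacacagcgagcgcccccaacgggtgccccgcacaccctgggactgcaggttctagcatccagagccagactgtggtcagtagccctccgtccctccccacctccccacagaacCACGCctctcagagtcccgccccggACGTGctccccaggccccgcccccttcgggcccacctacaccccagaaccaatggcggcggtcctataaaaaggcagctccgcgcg
Slc16a3 (chr11:120948817-120949116, plus strand): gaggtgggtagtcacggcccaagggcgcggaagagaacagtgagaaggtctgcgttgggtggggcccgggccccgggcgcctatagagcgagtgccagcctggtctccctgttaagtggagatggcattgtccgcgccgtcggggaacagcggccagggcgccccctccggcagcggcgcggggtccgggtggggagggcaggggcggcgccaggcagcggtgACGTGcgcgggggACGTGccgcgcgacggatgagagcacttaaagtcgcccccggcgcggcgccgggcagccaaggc
Pfkl (chr10:78009758-78010057, minus strand): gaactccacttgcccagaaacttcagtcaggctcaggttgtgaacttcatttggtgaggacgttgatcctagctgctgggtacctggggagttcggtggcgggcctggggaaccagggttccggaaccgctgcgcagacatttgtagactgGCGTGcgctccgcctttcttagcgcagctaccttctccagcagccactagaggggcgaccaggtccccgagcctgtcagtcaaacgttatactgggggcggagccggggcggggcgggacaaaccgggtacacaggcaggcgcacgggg
Ldha (chr7:46845554-46845853, plus strand): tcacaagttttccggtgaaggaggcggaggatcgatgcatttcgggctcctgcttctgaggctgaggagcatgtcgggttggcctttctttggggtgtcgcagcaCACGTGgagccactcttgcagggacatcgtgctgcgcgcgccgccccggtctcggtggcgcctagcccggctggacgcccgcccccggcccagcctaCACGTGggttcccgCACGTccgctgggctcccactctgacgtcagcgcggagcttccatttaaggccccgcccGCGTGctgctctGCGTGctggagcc
Pdk1 (chr2:71872974-71873273, plus strand): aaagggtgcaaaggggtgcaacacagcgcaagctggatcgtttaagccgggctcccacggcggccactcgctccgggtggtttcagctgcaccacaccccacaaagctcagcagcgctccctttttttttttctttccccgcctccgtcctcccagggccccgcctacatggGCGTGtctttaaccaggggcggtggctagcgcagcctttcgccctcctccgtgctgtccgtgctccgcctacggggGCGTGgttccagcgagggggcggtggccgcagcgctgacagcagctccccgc

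The Ldha promoter held 5 such runs. Slc2a1, Slc16a3 and Pdk1 held 2 each, and Pfkl held 1. Of the 31 listed genes with a promoter in the RefSeq table (Pdp1 and Slc2a3 have no entry there), 21 held at least 1 match, 67.7%, against 49.2% of the 17486 protein-coding genes with an entry. Among the members that rose, Aldoa, Hk1, Pkm and Tpi1 held no match at the first listed start. Later listed starts of Aldoa, Hk1 and Pkm held at least 1. A match is a description of these letters and no evidence of binding.

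Array values were compared on the log2 scale, and each gene was read from its brightest probe set in the tissue. The tests were made by limma, a linear model with moderated variances, over 12736 genes per tissue that were not among the dimmest 30% (30th percentile of gene means). A gene is said to rise or fall where its p-value adjusted by Benjamini-Hochberg over those 12736 genes was under 0.05. The labelled tissues carried their markers. The mean log2 intensity of 10 hepatocyte markers was 14.4 in livers at reduced oxygen and 14.3 in control livers, and at most 5.57 in any bone marrow or spleen array. Erythroid markers averaged 12.2 in bone marrow at reduced oxygen and 12.1 in control bone marrow. They did not set bone marrow apart from spleen. Their means there were 11.5 at reduced oxygen and 10.9 in controls, and the highest control spleen, at 12.6, exceeded every marrow array. B cell markers averaged 10.9 in spleens at reduced oxygen and 11.4 in control spleens. In 2 spleens, reduced oxygen replicate 2 and control replicate 5, pancreatic acinar markers averaged 10.7 and 13.2, while no other spleen exceeded 5.90.

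In the liver, 6 members rose after 2 hours of reduced oxygen and none fell. They were the glucose transporter Slc2a1, hexokinase Hk1, phosphofructokinase Pfkl, aldolase Aldoa, pyruvate kinase Pkm and lactate dehydrogenase Ldha. In the bone marrow 1 member rose, the pyruvate dehydrogenase kinase Pdk1. In the spleen 7 members rose and none fell: Pfkl, Tpi1, Gapdh, Pgk1, Pgam1, Ldha and the lactate transporter Slc16a3. Pfkl and Ldha passed the test in both liver and spleen, which is 33.3% of the liver's 6 and 28.6% of the spleen's 7.

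The share of members that rose in liver was 22.2% of the 27 that passed the filter on dim genes, against 3.88% of all genes tested there. In bone marrow it was 3.57% of 28, against 2.76% of all genes, so that the marrow count was close to the background. In spleen it was 24.1% of 29, against 6.84% of all genes. No member fell in any tissue by limma, against 12.6% of all genes in spleen, 7.22% in liver and 4.92% in bone marrow. In liver this depends on the fit, since Pfkm fell with the replicate number as a block and with the replicate set as a term. It also fell with the mean of a gene's probe sets, though Pfkm has 1 probe set and its own values did not change. In bone marrow Hk2 fell with the erythroid markers as a covariate (limma adjusted p = 0.0382). At an unadjusted p under 0.05, 1 member was lower in each tissue, Pfkm in liver, Hk2 in bone marrow and Pdp1 in spleen, against 16.2%, 14.8% and 18.8% of all genes in the same order. The median change of the tested members was 0.22 log2 units in spleen, 0.08 in liver and 0.04 in bone marrow, beside -0.01, -0.03 and -0.01 for all genes. Positive changes were found in 23 of 29 members in spleen, 17 of 27 in liver and 16 of 28 in bone marrow. As these are bulk tissues, a difference in RNA per cell and a difference in the number of cells of a type cannot be told apart.

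**Figure D1:**
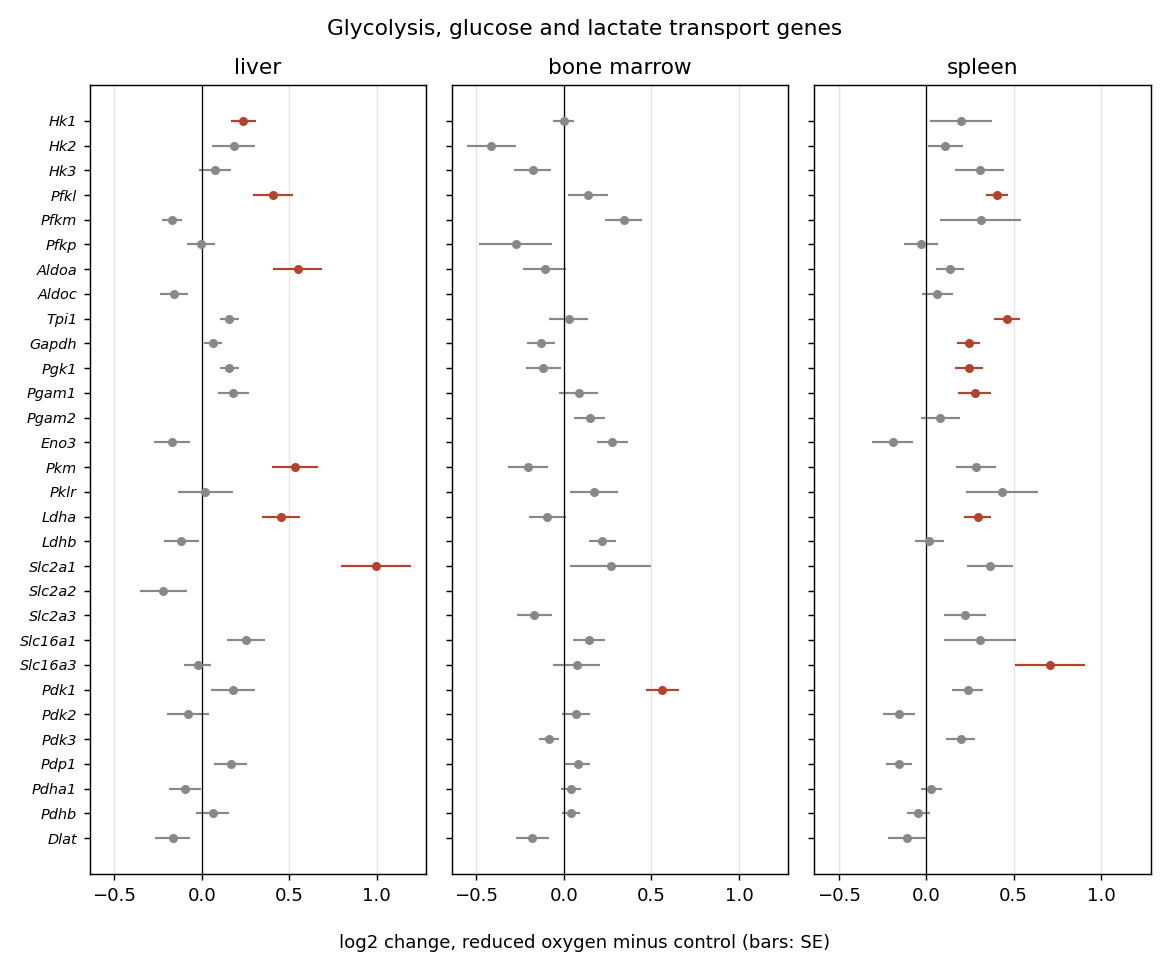
Log2 change (reduced oxygen minus control, with its SE) of each member that passed the filter, in the order of the pathway, in each tissue; red marks an adjusted p under 0.05 and grey the rest. The 7 red points in spleen, 6 in liver and 1 in bone marrow all lie right of 0, and the widest is Slc2a1 in liver at 0.99.

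The largest change of any member was that of Slc2a1 in liver. Slc2a1 encodes GLUT1, the glucose carrier found in most cell types, whereas Slc2a2 encodes GLUT2, the main carrier of hepatocytes. Slc2a1 reached log2 intensities of 7.76 to 9.62 (median 8.66) in livers at reduced oxygen, against 7.11 to 8.27 (median 7.76) in control livers. Of the 8 livers at reduced oxygen, 7 lay above every control liver. The means were 8.70 ± 0.52 at reduced oxygen and 7.70 ± 0.39 in controls (SD, n = 8 each), a rise of 0.99 ± 0.20 (SE) or 1.99-fold (limma adjusted p = 0.00255). The 3 Slc2a1 probe sets gave changes between 0.86 and 1.02. The change was also close in each set of liver replicates, 0.96 in replicates 1 to 4 and 1.03 in replicates 5 to 8.

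Slc2a2 gave 11.43 to 12.34 (median 11.74) in livers at reduced oxygen, against 11.73 to 12.45 (median 12.12) in control livers. The ranges overlapped and the difference of -0.22 did not pass the test (limma adjusted p = 0.338). In the spleen, Slc2a1 ranged from 9.17 to 10.16 (median 9.68) at reduced oxygen and from 9.08 to 9.59 (median 9.44) in controls. Its difference of 0.37 there lay just outside the threshold (limma adjusted p = 0.0586), and its 3 probe sets gave 0.35 to 0.42. It passed there with the mean of its probe sets, with quantile normalization, and with erythroid or neutrophil markers as a covariate. With the replicate block, with the replicate set as a term and within either set it did not. In bone marrow Slc2a1 differed by 0.27, with an adjusted p of 0.522 by limma. Slc2a3 (GLUT3), a high-affinity carrier of neurons and white blood cells, was dim in liver. It differed by -0.17 in bone marrow and by 0.22 in spleen, and neither passed the test. In spleen its 4 probe sets gave 0.22 to 0.59. Slc2a3 rose there with the mean of its probe sets and with a probe set less open to related transcripts. It did not pass there with neutrophil markers as a covariate. Slc2a2 was dim in bone marrow and spleen.

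Hexokinases phosphorylate glucose on entry. Hk1 rose in liver, with 5.74 to 6.09 (median 5.95) at reduced oxygen and 5.57 to 5.91 (median 5.69) in controls. All 8 livers at reduced oxygen lay above the control median. The rise was 0.24 ± 0.07 (limma adjusted p = 0.0322). It was the smallest of the 6 in liver, and its adjusted p passed 0.05 when any 1 of 8 of the 16 livers was left out, reaching 0.0695. The other Hk1 probe set was dim in liver and differed by 0.03. Hk2, an inducible hexokinase of muscle and dividing cells, differed by 0.18 in liver, and within liver replicates 5 to 8 alone by 0.40 (limma adjusted p = 0.0296). In replicates 1 to 4 it had 5.04, 5.12, 5.80 and 5.12 at reduced oxygen, against 5.40, 5.50, 5.16 and 5.16 in controls, and did not pass.

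In bone marrow, Hk2 had 9.81, 9.69, 9.40 and 9.81 at reduced oxygen, and 10.33, 9.81 and 10.14 in controls. No marrow at reduced oxygen lay above any control, and the lowest control equalled the highest values at reduced oxygen. The difference of -0.41 ± 0.14 did not pass (limma adjusted p = 0.110). With the erythroid markers as a covariate Hk2 fell there (limma adjusted p = 0.0382). In the spleen the largest hexokinase difference was that of Hk3, a hexokinase known from white blood cells. Hk3 ranged from 7.65 to 8.80 (median 8.10) in spleens at reduced oxygen and from 7.65 to 8.16 (median 7.85) in control spleens, a difference of 0.31 (limma adjusted p = 0.140). It passed with the mean of its 2 probe sets (0.34, limma adjusted p = 0.0394), with the probe set less open to related transcripts (0.37, 0.00849) and without the 2 spleens with pancreatic markers (0.42, 0.0354). With the neutrophil markers as a covariate its difference was -0.01 (limma adjusted p = 0.958). Hk1 and Hk2 there differed by 0.20 and 0.11, and Hk1 rose within replicates 5 to 8 alone.

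Of the steps that split the sugar, 2 of 6 tested members rose in liver and 2 of 6 in spleen. Pfkl, the liver-type subunit of phosphofructokinase, rose in both tissues. In the liver it ranged from 9.11 to 9.83 (median 9.53) at reduced oxygen and from 8.93 to 9.53 (median 8.98) in controls. In the spleen it ranged from 9.34 to 9.75 (median 9.54) at reduced oxygen and from 9.05 to 9.28 (median 9.17) in controls. Every spleen at reduced oxygen lay above every control spleen, while the liver groups overlapped. The rise was 0.41 ± 0.11 in liver (limma adjusted p = 0.0269) and 0.41 ± 0.06 in spleen (limma adjusted p = 0.000216). Its 3 probe sets gave 0.28 to 0.88 in liver and 0.37 to 0.42 in spleen. In the liver, leaving out any 1 of 6 arrays took the adjusted p past 0.05, to at most 0.0596. In bone marrow Pfkl differed by 0.14, with an adjusted p of 0.503.

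The muscle-type subunit Pfkm did not follow Pfkl in liver. In the liver it had 7.52 to 7.82 (median 7.68) at reduced oxygen and 7.76 to 7.91 (median 7.86) in controls, and no liver at reduced oxygen exceeded the control median. Its difference of -0.17 ± 0.06 did not pass (limma adjusted p = 0.0648). It fell with the replicate number as a block (limma adjusted p = 0.0401), with the replicate sets as a term (0.0198) and with the mean of a gene's probe sets (0.0285). The last of these fits left the values of Pfkm unchanged, as it has 1 probe set. In bone marrow Pfkm had 9.41, 9.47, 9.62 and 9.71 at reduced oxygen, against 9.01, 9.23 and 9.39 in controls. The marrow groups did not overlap, and the difference of 0.34 ± 0.10 had an adjusted p of 0.0869 by limma. In spleen Pfkm differed by 0.31 (limma adjusted p = 0.387), and it rose there within replicates 5 to 8 alone. The platelet-type subunit Pfkp differed by less than 0.05 in liver and spleen, and by -0.28 in bone marrow. Its 3 probe sets disagreed in sign in bone marrow (-0.40 to 0.62) and in spleen (-0.03 to 0.42).

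Aldoa encodes the aldolase of muscle and most tissues, which cleaves fructose 1,6-bisphosphate. It reached 9.78 to 10.81 (median 10.11) in livers at reduced oxygen, against 9.38 to 9.99 (median 9.60) in control livers, with 5 of 8 above every control. The rise was 0.55 ± 0.14, or 1.46-fold (limma adjusted p = 0.0136), and its 5 probe sets, all of a class that can hybridise to related transcripts, gave 0.37 to 0.56. Aldoa differed by -0.11 in bone marrow and 0.14 in spleen, and neither passed the test. With erythroid markers as a covariate Aldoa rose in spleen. Aldoc, an isozyme best known from brain, differed by -0.16 in liver and by 0.06 in spleen, and was dim in bone marrow.

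Tpi1, triosephosphate isomerase, had the second-smallest adjusted p of any member in spleen. It ranged from 10.42 to 10.91 (median 10.61) at reduced oxygen and from 10.04 to 10.34 (median 10.19) in control spleens. The groups did not overlap, which held for 2 of the 29 members (the other was Pfkl) and for 4.69% of all genes tested in spleen. The rise was 0.46 ± 0.07, or 1.38-fold (limma adjusted p = 0.000309), and its 3 probe sets gave 0.46 to 0.55. In the liver Tpi1 had 12.23 to 12.39 (median 12.34) at reduced oxygen and 12.06 to 12.25 (median 12.16) in controls. There 7 of 8 livers at reduced oxygen lay above every control, but the difference of 0.16 was small and did not pass (limma adjusted p = 0.0709). It passed with the replicate number as a block (limma adjusted p = 0.0492). Quantile normalization, a trended and robust variance model, and the replicate set as a term also gave a rise of Tpi1 in liver. In bone marrow Tpi1 differed by 0.03.

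**Figure D2:**
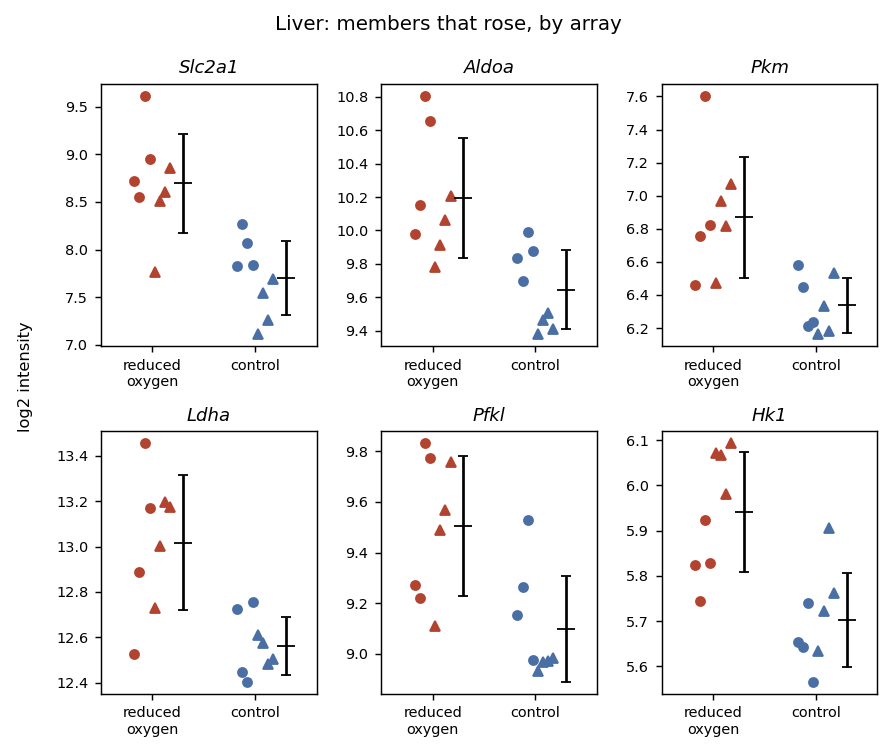
Log2 intensity of the 6 members that rose in liver, by array, with livers at reduced oxygen (red, left) and control livers (blue, right); circles are replicates 1 to 4, triangles replicates 5 to 8, and black bars the mean ± SD of 8 arrays. Slc2a1 shows the widest gap (means 8.70 and 7.70), and in every panel at least 1 liver at reduced oxygen lies within the control range.

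Of the lower steps, from glyceraldehyde phosphate to pyruvate, 3 of 7 tested members rose in spleen, 1 of 6 in liver and none of 7 in bone marrow by limma, where 1 (Eno3) had an unadjusted p under 0.05. Gapdh, which makes the first NADH of the pathway and is often taken as a stable reference gene, ranged from 12.70 to 13.09 (median 12.76) in spleens at reduced oxygen and from 12.36 to 12.73 (median 12.58) in control spleens. Of the 8 spleens at reduced oxygen, 6 lay above every control. The rise was 0.24 ± 0.07 (limma adjusted p = 0.0173), and its 3 probe sets gave 0.24 to 0.32. In liver Gapdh differed by 0.06 and in bone marrow by -0.13, and neither passed the test. The gap between its 3′ and 5′ probe sets, a measure of RNA integrity, averaged 0.12 ± 0.10 in spleens at reduced oxygen and 0.20 ± 0.13 in control spleens.

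Pgk1, phosphoglycerate kinase, yields the first ATP of the pathway. In spleen it had 11.05 to 11.61 (median 11.37) at reduced oxygen and 10.88 to 11.26 (median 11.13) in controls. The rise was 0.25 ± 0.08 (limma adjusted p = 0.0352), and 6 of 8 spleens at reduced oxygen exceeded every control. Pgam1, the phosphoglycerate mutase of most tissues, had 9.47 to 10.07 (median 9.66) in spleens at reduced oxygen and 9.07 to 9.59 (median 9.48) in control spleens. It rose by 0.28 ± 0.09 (limma adjusted p = 0.0448). These were the weakest of the 7 calls in spleen. Leaving out any 1 of 10 spleens for Pgk1, or of 12 for Pgam1, took the adjusted p past 0.05, to at most 0.0751 and 0.0894, and both were lost without the 2 spleens with pancreatic markers (0.0796 and 0.0676).

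In the liver Pgk1 ranged from 12.23 to 12.50 at reduced oxygen and from 12.16 to 12.25 in controls, a difference of 0.16 (limma adjusted p = 0.0776). Pgam1 differed there by 0.18 (limma adjusted p = 0.218). Both passed in liver with quantile normalization and with the replicate set as a term, and Pgk1 also with a trended and robust variance model. In bone marrow Pgk1 differed by -0.12 and Pgam1 by 0.08. The muscle mutase Pgam2 was dim in liver, and differed by 0.15 in bone marrow and 0.08 in spleen. The neuronal enolase Eno2 was dim in all 3 tissues and was the only measured member tested nowhere. Eno3, the muscle enolase, differed by -0.17 in liver and -0.19 in spleen, without passing. In bone marrow Eno3 had 7.58, 7.92, 7.58 and 7.62 at reduced oxygen, against 7.37, 7.46 and 7.37 in controls. The marrow groups did not overlap, with 1 array standing above the other 3, and the difference of 0.28 did not pass (limma adjusted p = 0.101).

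Of the pyruvate kinase genes, 1 of the 2 rose in the liver. Pkm, the gene of the muscle and proliferating-cell forms, had 6.46 to 7.61 (median 6.82) in livers at reduced oxygen and 6.16 to 6.58 (median 6.29) in control livers, with 6 of 8 above every control. The rise was 0.53 ± 0.13, or 1.45-fold (limma adjusted p = 0.0108). Pklr, the gene of the hepatocyte and red cell forms, averaged 9.36 ± 0.37 at reduced oxygen and 9.34 ± 0.33 in controls, a difference of 0.02 with wide overlap. In spleen Pkm differed by 0.28 (limma adjusted p = 0.0922) and Pklr by 0.43 (limma adjusted p = 0.159). With erythroid markers as a covariate Pkm rose there. In bone marrow Pkm and Pklr differed by -0.21 and 0.17, and neither passed.

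Pklr in spleen split by replicate set. It differed by -0.01 in replicates 1 to 4 and by 0.88 in replicates 5 to 8, where it passed. The mean of the erythroid markers moved the same way, at 11.5 in spleens at reduced oxygen and 11.6 in control spleens in replicates 1 to 4, and at 11.5 and 10.2 in replicates 5 to 8. With that marker mean as a covariate, the Pklr difference was 0.17 (limma adjusted p = 0.288). Over all 16 spleens none of the 7 erythroid markers passed the test.

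Ldha, the lactate dehydrogenase subunit that favours lactate formation, rose in liver and spleen. In liver it reached 12.52 to 13.46 (median 13.09) at reduced oxygen, against 12.40 to 12.75 (median 12.54) in controls. In spleen it had 11.28 to 11.69 (median 11.36) at reduced oxygen, against 10.82 to 11.31 (median 11.09) in controls. Of the 8 arrays at reduced oxygen, 6 exceeded every control in liver and 7 in spleen. The rise was 0.45 ± 0.11 in liver (limma adjusted p = 0.00928) and 0.29 ± 0.08 in spleen (limma adjusted p = 0.0129). In bone marrow it had 12.04 to 12.27 at reduced oxygen and 12.07 to 12.51 in controls, a difference of -0.10 within the spread.

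Ldhb, the subunit typical of heart, did not follow Ldha. It differed by -0.12 in liver and by 0.02 in spleen. In bone marrow it had 9.51, 9.48, 9.50 and 9.60 at reduced oxygen, against 9.17, 9.28 and 9.46 in controls. These groups did not overlap, yet the difference of 0.22 ± 0.08 did not pass (limma adjusted p = 0.119). With 4 arrays against 3, separation was common in bone marrow: it held for 5 of 28 members (Eno3, Ldhb, Pdhb, Pdk1 and Pfkm) and for 20.5% of all genes tested.

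Slc16a3 encodes MCT4, the carrier known for exporting lactate from glycolytic cells. It had 5.54 to 7.30 (median 6.25) in spleens at reduced oxygen, against 5.22 to 5.88 (median 5.54) in control spleens. Of the 8 spleens at reduced oxygen, 6 lay above every control, and the group at reduced oxygen was spread more widely (SD 0.58 against 0.21 in controls). The rise was 0.71 ± 0.20, or 1.63-fold, the largest change of any member in spleen (limma adjusted p = 0.0179). Its level lay not far above the dim limit in either spleen or liver, at the 36.6 and 35.6 percentile of gene means. In liver Slc16a3 had 4.95 to 5.54 at reduced oxygen and 5.11 to 5.45 in controls, a difference of -0.02. In bone marrow it differed by 0.07.

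Slc16a1 (MCT1), which carries lactate in either direction, differed by 0.25 in liver (limma adjusted p = 0.145), by 0.14 in bone marrow and by 0.31 in spleen. In spleen every array at reduced oxygen lay above the control median, but the control range of 10.82 to 12.43 enclosed the whole range of 11.47 to 12.42 at reduced oxygen. None of these differences passed. Slc16a1 rose in liver and in spleen within replicates 5 to 8 alone, and in bone marrow with the mean of its probe sets.

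**Figure D3:**
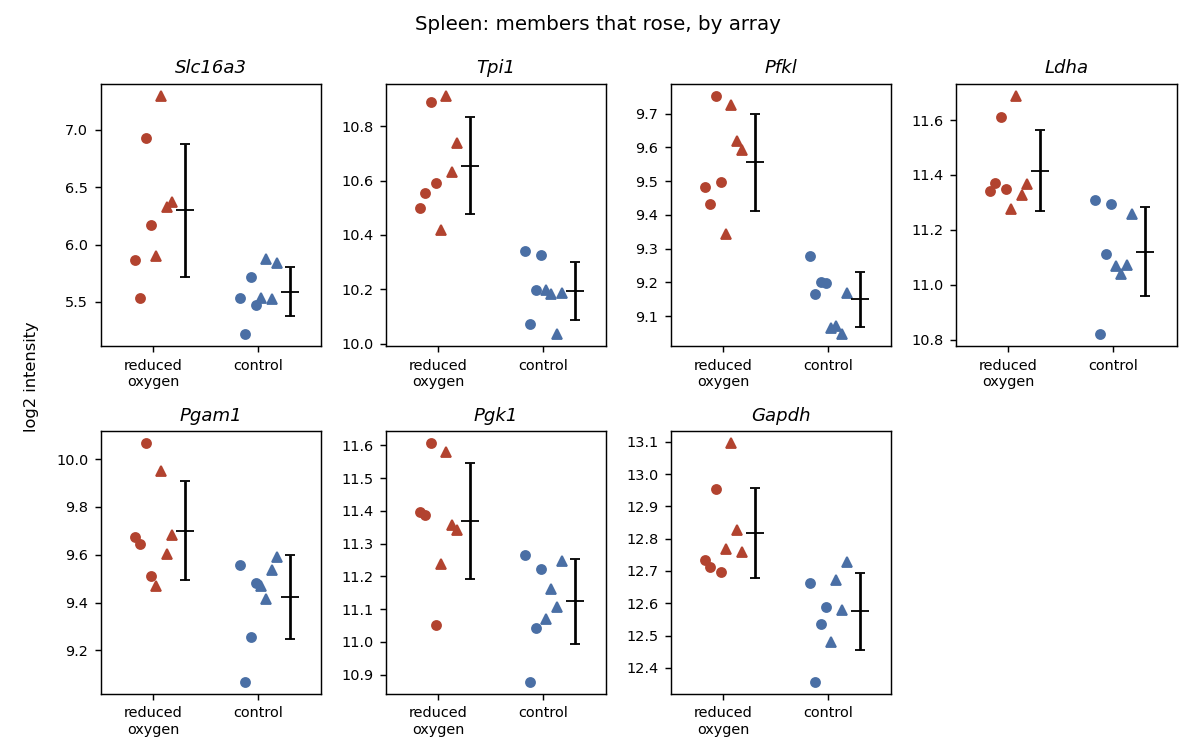
Log2 intensity of the 7 members that rose in spleen, by array, with spleens at reduced oxygen (red, left) and control spleens (blue, right); circles are replicates 1 to 4, triangles replicates 5 to 8, and black bars the mean ± SD of 8 arrays. Tpi1 and Pfkl are the panels without overlap, and Slc16a3 has the widest spread at reduced oxygen (5.54 to 7.30).

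Markers of neutrophils, cells rich in glycolytic enzymes, were higher on average at reduced oxygen in spleen and liver. In spleen the mean of 9 neutrophil markers was 10.5 (8.67 to 11.8) at reduced oxygen and 9.47 (8.84 to 10.1) in controls, and 4 of the 9 rose (Csf3r, Cxcr2, Mmp8 and Mmp9). Their summed intensity ranged from 7512 to 68253 at reduced oxygen and from 9528 to 29508 in controls. With the marker mean as a covariate, an alternative chosen after the data were seen, the Slc16a3 difference was 0.24 (limma adjusted p = 0.305). Pfkl at 0.33 and Tpi1 at 0.35 still passed (limma adjusted p = 0.00537 and 0.00738), and Slc2a1 at 0.50 then passed too (limma adjusted p = 0.0411). The other 4 of the 7 members that rose in spleen, Gapdh, Ldha, Pgam1 and Pgk1, differed by 0.16 to 0.23 in that fit and did not pass. B cell markers averaged 10.9 in spleens at reduced oxygen and 11.4 in control spleens, and 3 of 6 fell (Cd79b, Fcer2a and Pax5); their part in the result was not tested.

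In liver the mean of the neutrophil markers was 5.52 (5.08 to 6.19) at reduced oxygen and 5.14 (4.97 to 5.35) in controls, near the floor of the array. Of the 7 tested, 2 rose, S100a8 by 1.81 and S100a9 by 1.39. The others tested differed by -0.23 (Cxcr2) to 0.14 (Csf3r) and did not pass. The summed intensity of the neutrophil markers ranged from 337 to 1126 at reduced oxygen and from 310.1 to 412 in controls. With that mean as a covariate Slc2a1 differed by 1.01 and Aldoa by 0.62, and both still passed (limma adjusted p = 0.0195 and 0.0367). Ldha at 0.32, Pkm at 0.36, Pfkl at 0.34 and Hk1 at 0.14 did not.

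Pdk1, a kinase that blocks the pyruvate dehydrogenase complex, was the member that rose in bone marrow. It had 9.15, 9.34, 9.29 and 9.57 at reduced oxygen, against 8.74, 8.85 and 8.73 in controls. Every marrow at reduced oxygen lay above every control, and the rise was 0.56 ± 0.10, or 1.48-fold (limma adjusted p = 0.0122). It passed whichever of the 7 arrays was left out. Of its 3 probe sets above the dim limit the lowest gave 0.13. Cycling-cell markers were lower in the same arrays, averaging 11.8 at reduced oxygen and 12.1 in controls, with 2 of 5 (Aurka and Cdk1) falling, and their part in the result was not tested.

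Pdk1 differed by 0.24 in spleen (limma adjusted p = 0.0719) and by 0.18 in liver (limma adjusted p = 0.415), and its probe sets differed in sign in both (-0.20 to 0.43 in spleen and -0.17 to 0.18 in liver). Pdk2, the kinase of most tissues, differed by -0.08 in liver, -0.15 in spleen and 0.07 in bone marrow. Pdk3 was dim in liver and differed by 0.20 in spleen (limma adjusted p = 0.104). Pdp1, the opposing phosphatase, differed by 0.17 in liver and by -0.15 in spleen (limma adjusted p = 0.154). None of these passed as read above. Pdk1 rose in spleen with erythroid markers as a covariate, and in liver with the mean of its probe sets.

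The subunits of the complex did not pass in any tissue when read from the brightest probe set. Pdha1, Pdhb and Dlat differed by -0.17 to 0.06 in liver, by -0.18 to 0.04 in bone marrow and by -0.11 to 0.03 in spleen by limma, and none of these differences had an unadjusted p under 0.05. The dimmer of the 2 Pdhb probe sets gave 0.37 in liver and 0.52 in spleen, unlike the brighter. With the mean of both probe sets, Pdhb differed by 0.24 in spleen and passed (limma adjusted p = 0.0355). From the brightest probe sets the smallest adjusted p was 0.279, for Dlat in bone marrow.

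Whether a tissue's response differed from another's was tested directly, in a joint limma fit of all 39 arrays. Between liver and spleen 2 of the 26 members tested differed, against 9.74% of all 11326 genes. Slc16a3 rose in spleen by 0.71 but not in liver (-0.02), an interaction of -0.73 ± 0.21 for liver minus spleen (limma adjusted p = 0.0196). Tpi1, read in this fit from the probe set brightest over both tissues, changed by 0.17 in liver and 0.46 in spleen, an interaction of -0.29 ± 0.10 (limma adjusted p = 0.0427). The Tpi1 difference was lost when any 1 of 19 of the 32 arrays was left out, and when arrays were centred on their medians (0.0780). The larger liver response of Slc2a1 was not shown to differ from that in spleen (0.63, limma adjusted p = 0.111). With the replicate number as a block, Slc2a1, Aldoa and Pdp1 also differed, for 5 in all, though same-numbered samples deviated together in liver only.

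Between liver and bone marrow, 0 of 26 members differed by limma, against 2.74% of 11368 genes. At an unadjusted p under 0.05 there were 9, against 14.0% of all genes, and the smallest adjusted p was that of Pkm (0.74, limma adjusted p = 0.0615). Ldha (0.55) and Aldoa (0.66) followed, with 0.0745 and 0.0784, and Aldoa passed with the replicate block. Between spleen and bone marrow 0 of 28 differed by limma, against 0.289% of 12107 genes, and 9 had an unadjusted p under 0.05, against 7.94% of all genes. The bone marrow holds fewer arrays than either other tissue, and the absence of a call there does not show that the response was alike.

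Replicates 1 to 4 and 5 to 8 formed separate sets in liver, with 30th percentiles of log2 intensity of 4.15 to 4.23 and 4.28 to 4.30. The labels name no batch. All 6 liver rises were positive within each set, but Slc2a1 alone passed within replicates 1 to 4 (limma adjusted p = 0.0206), where each arm has 4 arrays, while all 6 passed within replicates 5 to 8. Cell markers differed between the sets too. Macrophage markers averaged 8.02 at reduced oxygen and 8.28 in controls in replicates 1 to 4, and 8.64 and 8.05 in replicates 5 to 8, and none of the 8 passed over all livers by limma. Neutrophil markers were on average higher at reduced oxygen by 0.28 in replicates 1 to 4 and by 0.48 in replicates 5 to 8. The part of the macrophage markers was not tested. With the set as a term in the model, 10 members passed in liver: Tpi1, Pgk1 and Pgam1 rose as well, and Pfkm fell. In spleen all 7 rises were positive within each set. Within replicates 1 to 4 none passed by limma. There 5 of the 29 members tested had an unadjusted p under 0.05, against 20.1% of all genes. All 5 were among the 7, which were picked with these arrays included. Within replicates 5 to 8, Pfkl, Tpi1, Slc16a3 and Ldha of the 7 passed, and so did Hk1, Pfkm, Pklr and Slc16a1.

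**Figure D4:**
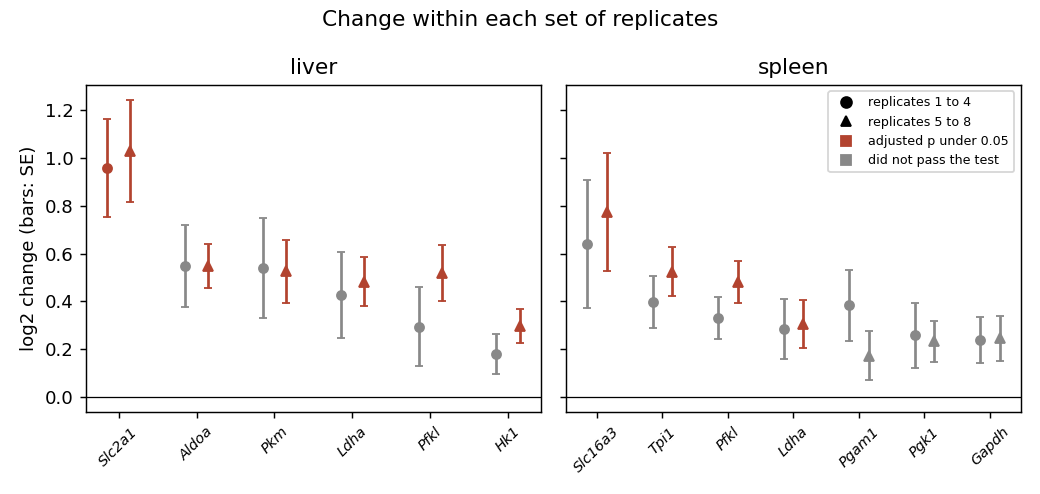
Log2 change (reduced oxygen minus control, with its SE) of the members that rose in liver (left) and spleen (right), fitted within replicates 1 to 4 (circles) and within replicates 5 to 8 (triangles), with red for an adjusted p under 0.05. All 26 points lie above 0, and Slc2a1 in liver is the one member that passed in both sets.

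Neighbouring genes of the pathway and known hypoxia-response genes, outside the 33, were followed in 6 lists. Of their 63 genes, 56 were measured. In liver 12 of 54 rose and 3 fell, in bone marrow 4 of 51 rose and 1 fell, and in spleen 12 of 50 rose and 2 fell. Of all genes tested, 3.88% rose and 7.22% fell in liver, 2.76% and 4.92% in bone marrow, and 6.84% and 12.6% in spleen. Most of the rises were HIF targets with other functions, with 9 of 17 rising in liver, 8 of 16 in spleen and 4 of 16 in bone marrow. Ddit4, an inhibitor of mTORC1, rose by 4.84 in liver, 3.93 in marrow and 2.11 in spleen. Adm, a vasodilator peptide, rose by 1.22, 0.91 and 1.14, and Bnip3, a mitophagy receptor, by 0.70, 0.77 and 0.75 in the same order. No pentose phosphate pathway gene passed in any tissue by limma (6 tested in each). At an unadjusted p under 0.05 there was 1 in each tissue, lower in liver and bone marrow and higher in spleen. The shares of all genes at that threshold were 24.4%, 24.7% and 31.8% in the same order.

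Among regulators of glycolysis, Pfkfb3 rose in liver, and Pfkfb4 rose and Tigar fell in spleen. Pfkfb3 makes fructose 2,6-bisphosphate, the strongest activator of phosphofructokinase. It had 7.85 to 9.97 (median 8.80) in livers at reduced oxygen, against 5.16 to 6.51 (median 5.65) in control livers, and the groups did not overlap. The rise of 3.00 ± 0.25 (limma adjusted p = 9.73e-08) exceeded every member's. Pfkfb3 differed by -0.26 in bone marrow and 0.04 in spleen, and the liver response differed from that in spleen by 2.96 (limma adjusted p = 6.66e-10) and from that in bone marrow by 3.26 (7.33e-08). Its relative Pfkfb4 rose in spleen by 0.55 (limma adjusted p = 0.0140). Tigar, which lowers fructose 2,6-bisphosphate, fell there by 0.36 (limma adjusted p = 0.0179). With neutrophil markers as a covariate, Pfkfb4 at 0.29 and Tigar at -0.30 no longer passed (limma adjusted p = 0.233 and 0.139).

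Around pyruvate dehydrogenase, Pdk4, a kinase induced by fasting and glucocorticoids, had 8.83 to 10.03 (median 9.32) in spleens at reduced oxygen, against 6.53 to 7.68 (median 7.19) in control spleens. It rose by 2.17 ± 0.18 (limma adjusted p = 4.89e-07), with no overlap. Its differences of 0.80 in liver (limma adjusted p = 0.163) and 0.83 in bone marrow (0.0532) did not pass, and the liver response was smaller than that in spleen by an interaction of -1.37 (limma adjusted p = 0.0237). In spleen the phosphatase Pdp2 fell by 0.43 and the pyruvate carrier subunit Mpc1 rose by 0.24 (limma adjusted p = 0.00277 and 0.0212), and with the neutrophil covariate Mpc1 no longer passed (0.111). In liver Pdpr, a regulator of the phosphatase, fell by 0.36 (limma adjusted p = 0.0447), a call that leaving out any 1 of 11 livers ended (at most 0.0962).

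Other transporters moved in both directions. Slc16a6 rose by 0.99 in liver and 0.74 in spleen (limma adjusted p = 0.00160 and 3.84e-05). Slc16a4 fell by 0.97 in liver and by 0.42 in bone marrow (limma adjusted p = 0.000446 and 0.0460). The intracellular glucose carrier Slc2a8 fell by 0.24 in liver (limma adjusted p = 0.0469). The call for Slc2a8 ended when any 1 of 12 livers was left out (at most 0.0933), and that for Slc16a4 in bone marrow when any 1 of 5 of the 7 arrays was (at most 0.132). G6pc, the enzyme that releases free glucose from hepatocytes, rose in liver by 1.21 ± 0.13. It had 11.96 to 13.17 (median 12.79) at reduced oxygen, against 11.34 to 11.81 (median 11.57) in controls, with no overlap (limma adjusted p = 2.73e-06), and it was dim in the other tissues.

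**Figure D5:**
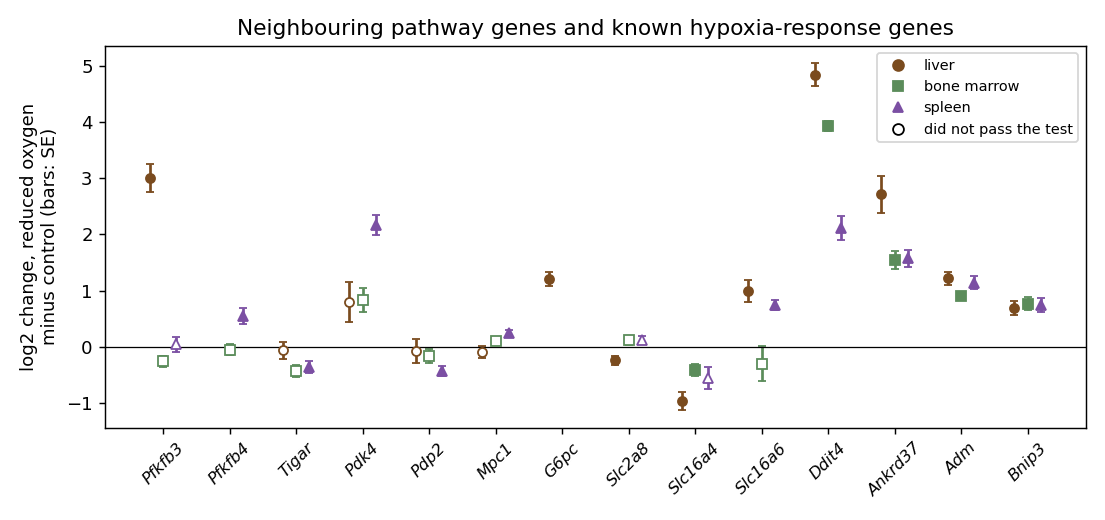
Log2 change (reduced oxygen minus control, with its SE) of 14 genes outside the 33 members, in liver (circles), bone marrow (squares) and spleen (triangles); filled symbols passed the test, open symbols did not, and a tissue where the gene was dim has no symbol. Pfkfb3 stands at 3.00 in liver and near 0 elsewhere, Pdk4 at 2.17 in spleen, and Ddit4 above 2 in every tissue.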

How the data were processed

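Total RNA was labelled with biotin and hybridised to 39 Affymetrix arrays. The deposited table gives 1 linear intensity per probe set and array, and the submitters' processing notes name RMA and limma, with no versions. The deposited intensities ran from 5.78 to 43830 and were turned to log2 here. Array medians spanned 6.16 to 6.20 in spleen, 6.22 to 6.29 in bone marrow and 5.21 to 5.33 in liver, so levels were set across tissues only to check tissue markers, as a description. The array annotation named 34958 of 45101 probe sets by 1 gene and 932 by several, which were not used. Tests used limma 3.58.1 in R 4.3.3 (two-sided), without a block. The method was tested on simulated data. The number of arrays limits the precision.

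The members and lists were chosen with earlier results of these data known. Values are given for members that passed, members with a different response, and the largest change per role and tissue, and for up to 4 genes of each other list. Same-numbered liver samples deviated together in all 8 pairs (correlations 0.17 to 0.54), so the block was fitted there as for pairs, a choice from the data and not the labels. Liver samples of other numbers within the same replicate set had a like correlation (mean 0.26, against 0.30 for the same number), and 2 of 8 numbers matched their own best. Alternatives changed the probe set, filter, normalization, variance model, replicate block, replicate set, marker covariate or arrays used.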

Additional observations from a re-analysis of the deposited data

Results flagged for a closer look

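In bone marrow, Eno3 in reduced oxygen replicate 2 stood apart at a log2 intensity of 7.92, with the nearest of the other 3 arrays at 7.62 and the lowest at 7.58. Such a gap appears by chance in about 1 in 20 groups, and 45 groups were examined. The response of Slc16a3 differed between liver and spleen by -0.73 (limma adjusted p = 0.0196), and that of Tpi1 by -0.29 (limma adjusted p = 0.0427), both for liver minus spleen. Neutrophil markers averaged 1.06 higher in spleens at reduced oxygen than in control spleens, and 0.38 higher in livers at reduced oxygen than in control livers. Their part in these interactions was not tested.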

How the results depend on the processing

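Against 6 members called in liver, the count was 10 with the replicate set as a term, 1 within replicates 1 to 4 and 2 with neutrophil markers as a covariate. The other 8 alternatives gave 5 to 9. Against 1 in bone marrow it was 2 with the mean of a gene's probe sets (Slc16a1 added) and 2 with erythroid markers as a covariate (Hk2 added, lower). Against 7 in spleen it was 0 within replicates 1 to 4, 11 with erythroid markers (Aldoa, Pdk1, Pkm and Slc2a1 added) and 3 with neutrophil markers. Against 2 between liver and spleen it was 4 with quantile normalization and 1 with arrays centred on their medians. Against 0 between liver and bone marrow it was 2 with quantile normalization. Leaving out 1 array gave 4 to 7 in liver, 1 in bone marrow, 5 to 10 in spleen, 1 to 3 between liver and spleen and 0 to 3 between liver and bone marrow (2 without liver reduced oxygen replicate 1 and 3 without replicate 5). Between spleen and bone marrow it stayed at 0 in every alternative. The difference turned to -0.0759 for Pdk1 in liver within replicates 5 to 8, to -0.00902 for Pklr in spleen within replicates 1 to 4, and to -0.0143 for Hk3 in spleen with neutrophil markers. The causes were not tested. Genes called over the whole array ranged from 693 (neutrophil markers) to 2666 (set term) in liver, against 1413, and from 461 (replicates 1 to 4) to 3316 (replicates 5 to 8) in spleen, against 2470.

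Same-numbered samples had correlations of -0.48 to 0.31 in spleen and -0.03 to 0.32 in bone marrow, and share only a number there. With the replicate block the count was 8 in liver, 1 in bone marrow, 5 in spleen, 5 between liver and spleen (Aldoa, Pdp1 and Slc2a1 added), 1 between liver and bone marrow (Aldoa) and 0 between spleen and bone marrow. In spleen the block lost Pgam1 and Pgk1.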
